A study of Mus musculus with 21 samples.

Results

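The binding of the bZIP proteins CEBPB and CREB1, both wild type, was compared on DNA that carried 5-hydroxymethylcytosine (5hmC). The comparison used 4 of the 21 protein binding microarrays of the study, 2 for each protein. They were chosen by their labels, without regard to any measured value. Other arrays of the study held CREB1 on unmodified cytosine or on 5-methylcytosine (5mC), and the mutants CEBPB(V285A) and CREB1(A297V). Both proteins were mouse DNA-binding domains with an N-terminal GST tag, expressed from a plasmid by in vitro transcription and translation. No full-length protein, partner protein or chromatin was present. Each array carried single-stranded probes of 35 variable bases, which were made double-stranded by primer extension with 5hmC in place of cytosine. The modified base therefore lay on the synthesised strand only, and the printed strand kept plain cytosine (a hemi-modified state). Bound protein was read as Cy5 intensity at 40330 spots. The labels did not say whether the 2 arrays of a protein came from separate protein preparations, so p-values measure only the spread between arrays of a group, taken over the groups of the study, which may be technical.

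CEBPB (C/EBPβ) is a regulator of fat cell, liver and myeloid genes, and CREB1 is the factor through which cyclic AMP signalling switches on genes such as those of gluconeogenesis. bZIP proteins bind as dimers through a long leucine zipper helix, and each basic region reads a short core on its side of the site. In the names used here the core GTCA (TGAC on the opposite side) is that of the cyclic AMP response element, CRE. The core GCAA (TTGC) is that of the C/EBP site, and GTAA (TTAC) is that of the PAR subfamily of bZIP proteins. 5hmC is an oxidation product of 5mC made by TET enzymes and is abundant in neurons and embryonic stem cells.

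The readout was a Z-score for each of 65535 sequences of 8 bases (8-mers), of which 64511 were carried by at least 8 probes and were tested. An 8-mer is written 5′ to 3′ as the synthesised strand, so that every C in a name was 5hmC. A Z-score is relative to the other 8-mers of its own array. It gives preference and not affinity, and the arrays of CREB1 had a wider range than those of CEBPB. The largest Z-score was 37.9 and 45.1 on the CEBPB arrays, against 141 and 171 on the CREB1 arrays. Ranks, which do not depend on that range, are given beside the Z-scores.

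Probes are shown here because they let the preferred sites be seen within the DNA that was bound, with the 8-mer of the highest group mean in capitals. They are written 5′ to 3′ as the synthesised strand, which is the reverse complement of the printed bases. The 3 probes with the best mean rank of signal for CEBPB were the following, named by their label on the array.
HK17096: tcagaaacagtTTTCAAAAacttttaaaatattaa
HK31326: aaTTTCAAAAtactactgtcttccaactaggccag
HK18477: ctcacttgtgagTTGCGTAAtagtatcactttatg
HK17096 gave 35259 and 27934 units of intensity with CEBPB and ranked 1 on both arrays. With CREB1 it gave 1787.5 and 1721.5, where the array medians were 1407 and 1544.5. HK18477, which holds a C/EBP core joined to a PAR core, gave 25599 and 23284 with CEBPB, and 3979.5 and 4373 with CREB1. For CREB1, 9 probes were at the scanner's ceiling of 65528 on both arrays, so their order was not measured. Their capitals were TGATGCAA in 4, TGACGCAA in 4 and TGACGTCA in 1, and 3 of the 9, an arbitrary choice among equals, are shown.
HK22085: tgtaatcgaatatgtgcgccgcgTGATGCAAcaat
HK33401: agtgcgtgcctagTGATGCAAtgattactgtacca
HK27478: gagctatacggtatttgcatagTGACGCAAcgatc
HK22085 gave 2670.5 and 1427.5 with CEBPB, and HK33401 gave 1772 and 2519.5. Spots at or above 65000 numbered 10 and 18 on the CREB1 arrays and 0 and 0 on the CEBPB arrays.

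The 2 CEBPB arrays differed from each other more than those of CREB1. Across the 8-mers tested, which are not independent replicates, Pearson's r was 0.798 between the CEBPB arrays and 0.961 between the CREB1 arrays. Between an array of CEBPB and one of CREB1 it was 0.333 to 0.546. Spearman's rho was 0.547 to 0.638 between the proteins, 0.752 between the CEBPB arrays and 0.914 between the CREB1 arrays. The CEBPB arrays also differed at the sequences that CREB1 preferred. At the 100 8-mers with the highest mean in CREB1, the median Z-score was 4.43 on CEBPB replicate 1 and 1.04 on CEBPB replicate 2. Replicate 1 was the higher of the pair at 96 of them. Of those 100, 29 were also among the top 100 of CEBPB replicate 1, and 4 among the top 100 of replicate 2. Counts of calls are therefore also given without CEBPB replicate 1, and the range of counts with each of the 4 arrays left out in turn follows them. In each such range for a list of 8-mers, the lowest count was reached without CEBPB replicate 2 or without CREB1 replicate 2. Signal was above background at 90.3% of spots on CEBPB replicate 1 and 97.5% on CEBPB replicate 2, with median backgrounds of 401.5 and 300. On the CREB1 arrays it was above background at 99.89% and 99.995% of spots. Why the CEBPB arrays differed was not tested. The deposited spots of the CREB1 arrays began with another probe than those of the CEBPB arrays, and spot positions were not compared. Any difference of layout and the protein cannot be told apart.

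**Figure D1:**
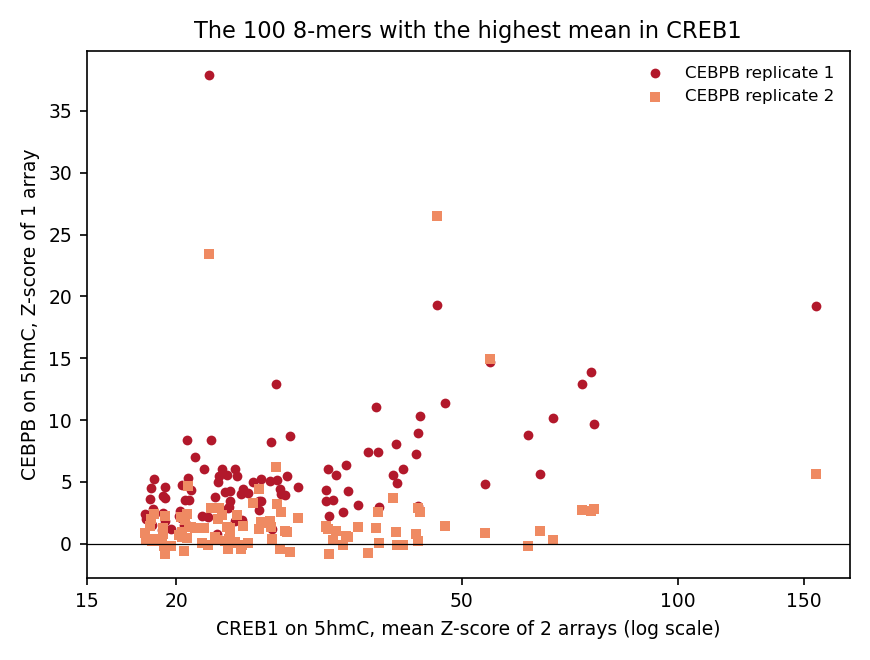
Z-scores of the 2 CEBPB arrays (vertical axis, circles for replicate 1 and squares for replicate 2) at the 100 8-mers with the highest mean Z-score in CREB1 (horizontal axis, log scale), all on 5hmC. The circles lie above the squares at 96 of the 100 8-mers, with medians of 4.43 and 1.04.

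The proteins preferred different sequences on 5hmC. Of the 64511 8-mers, 571 were higher in CEBPB (0.885%) and 1579 were higher in CREB1 (2.45%), 3.33% in all, by limma at an adjusted p under 0.05. The arrays of the groups did not overlap in any of the 2150, but they also did not overlap in 61.3% of all 8-mers tested. Only 12 of the 100 8-mers with the highest mean were shared between the proteins. Between single arrays of a protein, 53 of the top 100 were shared for CEBPB and 82 for CREB1. Differences of at least 5 Z units were found in 45 of the 8-mers called higher in CEBPB and in 387 of those called higher in CREB1. The fit took the spread of each 8-mer over all 21 arrays. With the 4 arrays alone, 4769 were called higher in CEBPB and 6519 in CREB1, and without CEBPB replicate 1 the counts were 329 and 893. They were 83 and 494 without CEBPB replicate 2, 118 and 773 without CREB1 replicate 1, and 84 and 563 without CREB1 replicate 2. How the calls divided between the proteins depended on scale: 26.6% were higher in CEBPB as deposited, 55.6% when each array was divided by its SD, and 42.0% after quantile normalization.

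The cores behind the preferred 8-mers differed between the proteins. Among the top 100 of CEBPB, TTGC was in 36, GTAA in 28 and GCAA in 20, and TGAC was in 6. Among the top 100 of CREB1, TGAC was in 51 and GCAA in 35, and TTGC was in 1. Of all 8-mers tested, 1270 (1.97%) held TGAC and as many held TTGC. GTCA, the opposite strand of TGAC, was in 0 of the top 100 of CEBPB and in 1 of CREB1. Without CEBPB replicate 1, TTGC was in 43 and TGAC in 1 of the top 100 of the remaining CEBPB array. On CEBPB replicate 1 alone, TTGC was in 26 and TGAC in 18. CG was in 67 of the top 100 of CREB1 and in 27 of CEBPB, and in 38.2% of all 8-mers tested. By single array, CG was in 40 and 17 of the top 100 with CEBPB and in 68 and 68 with CREB1.

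Sites that begin with the CRE core TGAC followed by G were mostly called higher in CREB1. Of these 64 8-mers, 41 (64.1%) were called higher in CREB1, beside 2.45% of all 8-mers tested, and 0 in CEBPB. Their median difference, CEBPB minus CREB1, was -5.67 Z units, beside 0.0171 over all 8-mers tested. The medians of the list were 1.35 and 0.137 on the CEBPB arrays and 6.26 and 6.48 on the CREB1 arrays. The count for CREB1 was 34 without CEBPB replicate 1, and 24 to 34 with 1 array left out. With A after TGAC, 12 of 64 were called higher in CREB1, with T 3 of 64, and with C 2 of 60. These were 7, 2 and 0 without CEBPB replicate 1, and with 1 array left out 5 to 7, 0 to 2 and 0. In CEBPB, 1 of these was called higher, with T after TGAC. The opposite strand, GTCA at the end of the 8-mer, was called higher in CREB1 in 5 of 255 (1.96%) and in CEBPB in 0, and in 0 to 2 with 1 array left out.

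The consensus CRE itself, TGACGTCA, ranked high in CREB1 (35) and lower in CEBPB (320), and was the highest 8-mer of neither. Of the 19 probes with TGACGTCA, 8 and 9 were in the brightest 1% of the CREB1 arrays, and 6 and 0 in that of the CEBPB arrays. The Z-scores of TGACGTCA were 8.74 and -0.653 with CEBPB and 19.1 and 38.5 with CREB1. The CREB1 arrays were above the CEBPB arrays, but both pairs were wide apart. The difference of -24.76 (SE 14.8) was not called, with a limma adjusted p of 0.452, and it was called with the 4 arrays alone (limma adjusted p 0.00824). On unmodified cytosine, TGACGTCA was the highest 8-mer of CREB1, with Z-scores of 213 and 177. Of the 24 single-base variants of TGACGTCA, 4 were called higher in CREB1 and 0 in CEBPB. One variant had a higher mean than the site itself in both proteins: C7A, counting from 1 at the 5′ end, which makes TGACGTAA. That 8-mer joins a CRE core to a PAR core and gave 14.7 and 15.0 with CEBPB and 52.6 and 56.8 with CREB1. It ranked 10 in CEBPB and 8 in CREB1, and its difference of -39.89 was not called (SE 21.5, limma adjusted p 0.387).

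CREB1 had its highest Z-scores at sites that join a CRE-like core to a C/EBP core. TGATGCAA, the composite C/EBP-ATF site known from genes of the amino acid response, gave 141 and 171 with CREB1 and 19.2 and 5.66 with CEBPB. It ranked 1 in CREB1 and 14 in CEBPB, and every CREB1 array was above every CEBPB array. The difference was -143.56 Z units (SE 11.5, limma adjusted p 4.26e-09), and -150 without CEBPB replicate 1 (limma adjusted p 2.06e-07). It was not called after quantile normalization of the 4 arrays alone (limma adjusted p 0.153). TGACGCAA, which differs by T4C, gave 70.1 and 82.8 with CREB1 and 9.73 and 2.85 with CEBPB (difference -70.14, SE 13.0, limma adjusted p 0.00148). That call was lost without CREB1 replicate 2 (limma adjusted p 0.0881) and after quantile normalization of the 4 arrays (0.161). The 17 probes with TGATGCAA had median intensities of 31419 and 44695 on the CREB1 arrays, and 2451 and 919 on the CEBPB arrays. Of those 17, 12 and 14 were in the brightest 1% of the CREB1 arrays, and 3 and 0 in that of the CEBPB arrays. The probe in the middle of the 17 by mean rank is shown as an example of a typical probe.
HK03873: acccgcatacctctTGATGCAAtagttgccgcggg
It gave 31419 and 44695 with CREB1, and 1704 and 880 with CEBPB.

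8-mers that overlap these sites also ranked high in CREB1. ACGCAATA gave 68.1 and 83.1 with CREB1 and 13.9 and 2.68 with CEBPB (difference -67.34, limma adjusted p 0.00471). It was not called without CEBPB replicate 2 (limma adjusted p 0.131) or CREB1 replicate 2 (0.132), or after quantile normalization of all arrays (0.0624) or of the 4 (0.271). GATGACGC gave 65.7 and 68.6 with CREB1, against 10.2 and 0.292 with CEBPB (difference -61.88, limma adjusted p 6.02e-06). The other 8-mers named as the largest differences on the CREB1 side were ATGCAATA, CGTGACGC, TTATGACG, TGGTGACG, ATGCAACG and CCATGCAA, with differences from -37.56 to -25.87 Z units. GATGACGC, ATGCAATA, CGTGACGC and TGGTGACG were not called after quantile normalization of the 4 arrays (limma adjusted p 0.0603 to 0.22). All 10 named on that side hold TGAC or GCAA. Of the 30 8-mers on the list of composite C/EBP-ATF sites, 13 were called higher in CREB1 and 1 in CEBPB. The shares of all 8-mers tested were 2.45% and 0.885%. In CREB1 the count was 10 without CEBPB replicate 1, and 6 to 10 with 1 array left out. Summarised over the 48 8-mers that hold it, the 6-base sequence ATGACG was the highest in CREB1, with medians of 17.6 and 21.8. Its medians were 2.53 and 0.265 on the CEBPB arrays, where it ranked 96.

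Single-base variants of the composite site were lower in CREB1. Of the 24 variants of TGATGCAA, 15 were called higher in CREB1 and 0 in CEBPB. The variant C6T, TGATGTAA, in which a PAR core replaces the C/EBP core and no 5hmC is left, gave 28.3 and 23.8 with CREB1. With CEBPB it gave 2.70 and 4.42, and the difference of -22.52 was called (SE 4.66, limma adjusted p 0.0045). It was no longer called without CEBPB replicate 1, CEBPB replicate 2 or CREB1 replicate 1 (limma adjusted p 0.0705, 0.0713 and 0.0708), or after quantile normalization (limma adjusted p 0.323). G2T, TTATGCAA, gave 20.4 and 34.7 with CREB1 and 13.0 and 6.19 with CEBPB, and was not called. TGATGTCA, with the CRE core on the right, stayed at 6.69 and 6.58 with CREB1 and 1.31 and 1.38 with CEBPB. TGATGCAA, with a mean of 156 in CREB1, was above each of its 24 variants there, the nearest being TGACGCAA with 76.4.

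**Figure D2:**
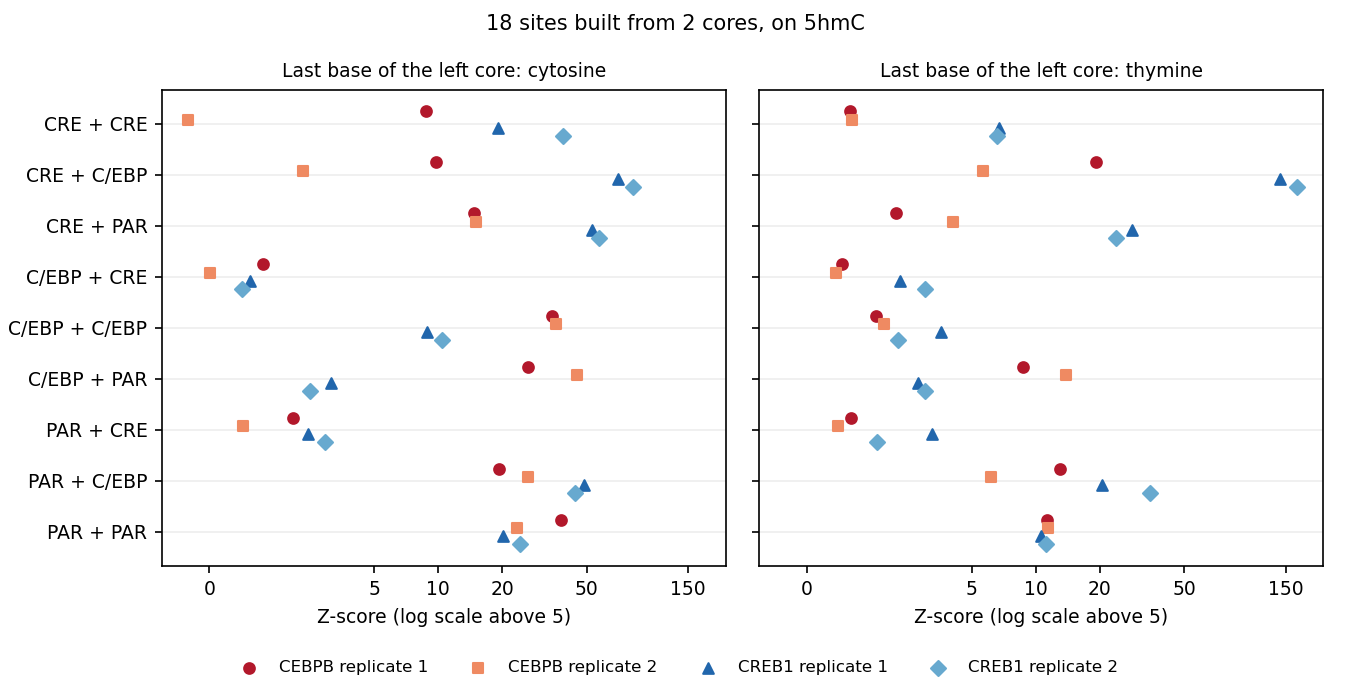
Z-score on each of the 4 arrays for the 18 sites made of a left core (CRE, C/EBP or PAR, ending in cytosine in the left panel and thymine in the right panel) and a right core (CRE, C/EBP or PAR), on 5hmC, linear up to 5 and on a log scale above. In CREB1 the left CRE core with the right C/EBP core is highest (141 and 171 in the right panel), and in CEBPB the sites with a left C/EBP or PAR core and a right C/EBP or PAR core in the left panel reach 19.3 to 45.1.

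The 4 highest 8-mers of CEBPB begin with a C/EBP or PAR core and also end in one. TTGCGTAA, a C/EBP core joined to a PAR core, gave 26.4 and 45.1 with CEBPB, against 3.69 and 3.05 with CREB1. It ranked 1 in CEBPB and 1494 in CREB1. The difference was 32.35 Z units (SE 8.37, limma adjusted p 0.0271). It was 41.7 without CEBPB replicate 1 (limma adjusted p 0.0226). It was not called without CEBPB replicate 2, CREB1 replicate 1 or CREB1 replicate 2 (limma adjusted p 0.409, 0.201 and 0.261), nor over all 8-mers (0.0584) or after quantile normalization of the 4 arrays (0.0737). TTGCGCAA, the palindrome of the C/EBP core, gave 34.4 and 35.9 with CEBPB and 8.85 and 10.4 with CREB1, and it ranked 2 and 266. Its SDs were 1.01 and 1.07 in these groups, but the SE of 13.4 came from the spread over all arrays of the study. With it the difference of 25.54 was not called (limma adjusted p 0.37), and with the 4 arrays alone it was (limma adjusted p 0.0132). The PAR palindrome TTACGTAA gave 37.9 and 23.4 with CEBPB and 20.3 and 24.2 with CREB1. Those groups overlapped, and the difference of 8.43 was not called (SE 8.29, limma adjusted p 0.698).

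The clearest differences toward CEBPB were at 8-mers with a single core or none. TTGCGAAA gave 17.6 and 24.9 with CEBPB, against 0.580 and 0.363 with CREB1, ranks 6 and 21285. Its difference was 20.79 Z units (SE 1.46, limma adjusted p 5.1e-10). TTGCACAA gave 19.3 and 25.8 with CEBPB and 2.02 and 2.32 with CREB1 (difference 20.38, SE 2.69, limma adjusted p 1.59e-05). TTGTGAAA, which holds no cytosine and so no 5hmC, gave 11.6 and 20.0 against 1.15 and 1.06 (difference 14.69, limma adjusted p 4.71e-07). These 3 were also called without CEBPB replicate 1, with differences of 24.4, 23.6 and 18.9. TTGTGTAA, also without cytosine, gave 8.73 and 13.8 with CEBPB and 3.37 and 3.58 with CREB1 (difference 7.80, limma adjusted p 0.03). It was not called without CEBPB replicate 2, CREB1 replicate 1 or CREB1 replicate 2 (limma adjusted p 0.486, 0.22 and 0.234), nor over all 8-mers (0.0556). In raw intensity, the 17 probes with TTGCACAA had medians of 2407 and 1812 on the CEBPB arrays, and the array medians were 580 and 538. On the CREB1 arrays their medians were 1901.5 and 2144.5. Of those 17 probes, 6 and 6 were in the brightest 1% of the CEBPB arrays and 0 and 0 in that of the CREB1 arrays. A probe from this set is shown, which is in the middle by mean rank over the 4 arrays but in the brightest 1% of both CEBPB arrays.
HK30472: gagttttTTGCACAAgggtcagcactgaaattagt
It gave 8914.5 and 5989.5 with CEBPB, and 1692 and 2144.5 with CREB1.

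CEBPB was also high at sequences with none of the bZIP cores. TTTCAAAA, in capitals in the brightest CEBPB probes above, gave 9.47 and 9.29 with CEBPB and -0.439 and -0.114 with CREB1 (difference 9.66, SE 0.695, limma adjusted p 8.51e-10). TTTCGAAA gave 6.53 and 13.0 against 0.415 and 0.0991 (difference 9.53, limma adjusted p 1.98e-05). GAAATTCT gave 8.84 and 18.0 against 1.32 and 1.39 (difference 12.07, limma adjusted p 2.57e-05), and GAAATCCT gave 9.93 and 15.5 against 1.65 and 0.908. Of the 571 8-mers called higher in CEBPB, 83 held GAAA and 74 held its opposite strand TTTC, against 1.98% and 1.97% of all 8-mers tested. These were 54 and 50 of 329 without CEBPB replicate 1, and with 1 array left out 22 to 54 and 8 to 50. These 4-base sequences were chosen after their values were seen, so the counts are a description. Of the 571, 472 held none of the 6 core sequences, as did 1013 of the 1579 called higher in CREB1 and 56948 of all 64511 tested.

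For the C/EBP core, which protein was higher depended on the strand. Lists of 8-mers beginning with TTGC had medians higher in CEBPB whatever base followed, from 0.426 (G) to 0.857 (A) Z units. Over all 8-mers tested, 0.885% were called higher in CEBPB and 2.45% in CREB1, and 32911 of 64511 had the higher mean in CEBPB. Over the 252 tested that begin with TTGC, 10 (3.97%) were called higher in CEBPB and 5 (1.98%) in CREB1, and 189 had the higher mean in CEBPB. With 1 array left out the counts were 5 to 12 and 2 to 3, with 12 and 2 without CEBPB replicate 1. Lists ending in GCAA, the same core on the opposite strand, had medians lower in CEBPB, from -0.212 (A before the core) to -2.06 (T). Over the 255 tested, 33 (12.9%) were called higher in CREB1 and 1 in CEBPB. The 33 fell to 21 without CEBPB replicate 1, and were 11 to 21 with 1 array left out. With T before GCAA, 20 of 64 were called higher in CREB1, 13 of 64 without CEBPB replicate 1, and 6 to 13 with 1 array left out. In 8-mers that hold TTGC at any place, 83 of 1270 (6.54%) were called higher in CEBPB and 16 (1.26%) in CREB1. These were 69 and 8 without CEBPB replicate 1, and with 1 array left out 18 to 69 and 4 to 10. In those that hold GCAA, 4 of 1277 were called higher in CEBPB and 173 (13.5%) in CREB1. The 173 fell to 98 without CEBPB replicate 1, and were 57 to 98 with 1 array left out.

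8-mers with PAR cores were called in few cases. Of the 255 8-mers ending in GTAA, 6 (2.35%) were called higher in CEBPB and 5 (1.96%) in CREB1. Over all 8-mers tested the shares were 0.885% and 2.45%. With 1 array left out the counts were 1 to 6 and 0 to 1, with 6 and 0 without CEBPB replicate 1. Of the 252 beginning with TTAC, 2 and 2 were called (0.794% each), and 0 to 1 each with 1 array left out. Their median differences were -0.312 and 0.0101. Some PAR sites ranked high in both proteins: TGACGTAA ranked 10 and 8, TTACGCAA 4 and 11, and TTATGTAA 16 and 223. TTATGTAA gave 11.4 and 11.4 with CEBPB and 10.6 and 11.1 with CREB1. TTACATAA, which begins with a PAR core, was at 10.2 and 21.9 with CEBPB against 1.84 and 1.02 with CREB1. Its difference of 14.59 was not called in the fit over all arrays (SE 8.66, limma adjusted p 0.448), and was with the 4 arrays alone (limma adjusted p 0.00287). GTAATCGT and GTAATAAT, in which T follows GTAA, ranked 7 and 11 in CEBPB and 315 and 824 in CREB1. GTAATAAT gave 13.0 and 15.8 against 3.92 and 5.21 (difference 9.81, limma adjusted p 0.0408), and was not called on leaving out any 1 of the 4 arrays (limma adjusted p 0.0916 to 0.375) or over all 8-mers (0.113).

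Over the 18 sites built from 2 cores, 2 were called higher in CEBPB and 3 in CREB1, and 13 were not called. With the 4 arrays alone the counts were 3 and 8. The remaining sites of this set were low in both proteins where the right core was that of the CRE and the left was not TGAC. TTGCGTCA, TTACGTCA, TTGTGTCA and TTATGTCA lay between 0.0281 and 2.54 with CEBPB and between 0.982 and 3.79 with CREB1. None of the 4 was called. TTGTGCAA, the variant C4T of the C/EBP palindrome, gave 2.10 and 2.34 with CEBPB and 4.08 and 2.76 with CREB1. Of the reverse complements, TTGCATCA, TTACATCA, TTACACAA and TGACATAA lay between 1.98 and 5.07 with CEBPB and between 0.531 and 2.93 with CREB1. TGACATCA and TGACACAA lay between 0.963 and 4.95 with CEBPB and from 4.08 upward with CREB1. TTGCATAA gave 5.91 and 7.53 with CEBPB and 3.18 and 2.42 with CREB1.

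The proteins were then compared in how the Z-score of an 8-mer differed from that of its reverse complement. For each 8-mer that is not its own reverse complement, the Z-score of the reverse complement was subtracted, which gave the asymmetry of the pair. The 2 members carry 5hmC on opposite strands of the site. They also lie in opposite orientation on the array, which was not separated from the strand of 5hmC. On unmodified cytosine, CREB1 also had pairs with unequal members, such as TGACATCA (18.1 and 21.7) and TGATGTCA (7.15 and 14.9). Other pairs had closer members there. TGACGCAA was at 16.8 and 20.4 and TTGCGTCA at 12.4 and 23.4, and TGATGCAA was at 1.69 and 4.10 and TTGCATCA at 2.44 and 2.58. Of 31615 pairs, the asymmetry differed between the proteins in 969 (3.07%). It was the larger in CREB1 in 790 of these and in CEBPB in 179, and the signs of the means were opposite in 507. In 39 of these the asymmetry was called in both proteins. Within a protein, the asymmetry was called in 2932 pairs for CEBPB and in 3921 for CREB1. After division by array SD these were 6164 and 1051, so which protein had more such pairs depended on scale. The split into 790 and 179 was counted only on Z-scores as deposited, which had the wider range in CREB1. The counts that follow are also on Z-scores as deposited. Without CEBPB replicate 1 the difference was called in 673 pairs, and within CEBPB in 357. Without CEBPB replicate 2 these counts were 412 and 82.

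**Figure D3:**
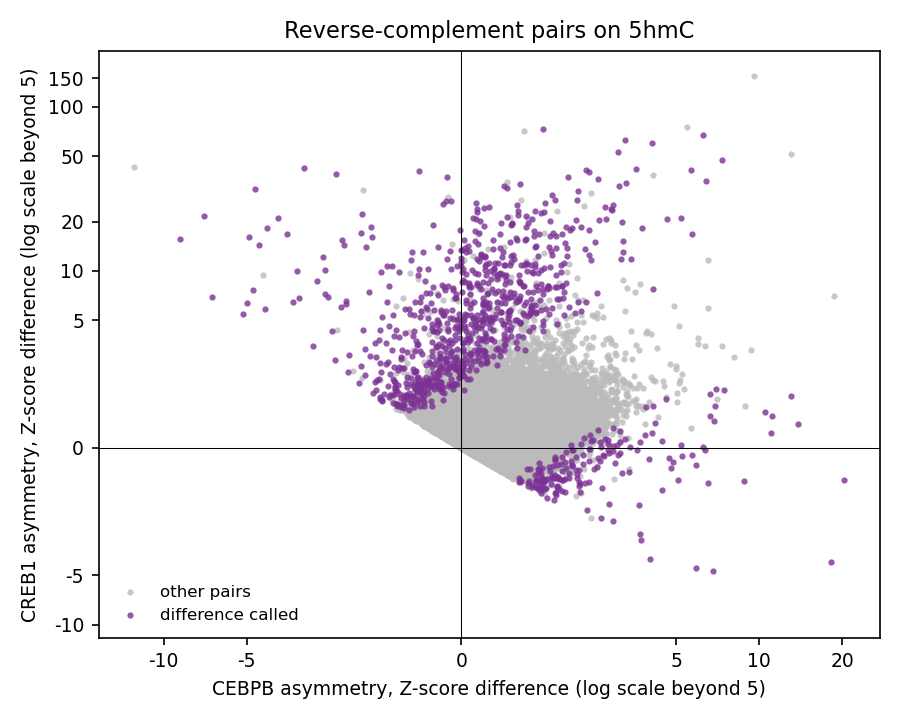
Strand asymmetry of each reverse-complement pair, the difference of Z-scores between its 2 members, for CEBPB (horizontal axis) and CREB1 (vertical axis) on 5hmC, linear up to 5 and on a log scale beyond. Each pair is turned so that the larger of its 2 asymmetries is positive. Pairs in purple are the 969 whose asymmetry differed between the proteins, and the grey point at the top is TGATGCAA with an asymmetry of 155 in CREB1 and 9.55 in CEBPB.

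Named pairs with the larger asymmetry in CEBPB had TTGC on the higher member in 3 cases. TTGCACAA stood 20.3 Z units above its reverse complement TTGTGCAA in CEBPB (17.2 and 23.5 on the 2 arrays), and in CREB1 its asymmetry of -1.25 was not called (limma adjusted p 0.786). The difference of 21.6 was called (SE 3.29, limma adjusted p 0.00022), and was lost after quantile normalization of the 4 arrays (0.839). TTGCGAAA stood 18.2 above TTTCGCAA in CEBPB and 4.49 below it in CREB1 (difference 22.7, SE 1.65, limma adjusted p 7.01e-09). CGATTGCA stood 6.83 above TGCAATCG in CEBPB and had an asymmetry of -4.84 in CREB1 (difference 11.7, limma adjusted p 6.34e-06). In the last 2 pairs the asymmetry was called in both proteins with opposite signs, with GCAA on the higher member in CREB1 (limma adjusted p 0.0141 and 0.00172).

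The joined C/EBP and PAR site was high in both orientations in CEBPB and in 1 orientation in CREB1. TTGCGTAA was at 26.4 and 45.1 in CEBPB and its reverse complement TTACGCAA at 19.3 and 26.5. In CREB1 TTGCGTAA was at 3.69 and 3.05 and TTACGCAA at 48.3 and 44.2. The asymmetry was 12.8 in CEBPB and -42.85 in CREB1, with no overlap of the arrays. In the fit with a mean-variance trend the SE of this pair was 818 and the difference was not called. That SE was far above the SDs of the asymmetry between arrays, 8.14 in CEBPB and 2.45 in CREB1, so the test with the trend cannot decide this pair. Without the trend the SE was 12.2 and the limma adjusted p 0.0106. TGATGCAA with TTGCATCA was in the same position. Its asymmetry of 155 in CREB1 and 9.55 in CEBPB gave an SE of 274 with the trend (limma adjusted p 0.908) and 6.80 without (limma adjusted p 3.29e-11). TGACGCAA with TTGCGTCA was another such pair, with an asymmetry of 75.3 in CREB1 and 5.46 in CEBPB. Its difference of -69.86 had an SE of 20.5 with the trend (limma adjusted p 0.0742) and 6.81 without (limma adjusted p 8.97e-07).

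Among the named pairs that were called, the largest differences of asymmetry on the CREB1 side were mostly at those with TGAC or GCAA on the higher member. GATGACGC stood 67.3 above GCGTCATC in CREB1 and 6.26 above it in CEBPB (difference -61.09, SE 3.29, limma adjusted p 1.04e-10). It was not called on the asinh scale (limma adjusted p 0.0579) or after quantile normalization of the 4 arrays (0.0705). GTGACGCA, with an asymmetry of 41.4 in CREB1 and 2.91 in CEBPB, was called as well (difference -38.50, limma adjusted p 5.80e-08). ACGCAATA and ATGCAATA hold GCAA, and GTGATGCA holds neither TGAC nor GCAA. The asymmetries of ACGCAATA, ATGCAATA and GTGATGCA were 73.1, 42.4 and 41.9 in CREB1, against 1.89, -3.67 and 4.07 in CEBPB. On the asinh scale GTGATGCA was not called (limma adjusted p 0.372). TGATGTAA stood 25.5 above TTACATCA in CREB1 and 0.431 below it in CEBPB (difference -25.96, SE 2.88, limma adjusted p 3.23e-06). TGATGTAA has no 5hmC on its own strand, and TTACATCA does. By list, the 62 pairs with C before GTCA had a median asymmetry of -4.87 and -5.78 on the CREB1 arrays, where 0 and 0 of the 62 were positive. On the CEBPB arrays the medians were -1.30 and -0.288, with 9 and 27 positive. Of the 62 pairs, 30 differed between the proteins, beside 3.07% of all pairs tested. In the 64 pairs with T before GCAA, the medians were 2.07 and 2.63 with CREB1 and 0.129 and -0.940 with CEBPB.

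**Figure D4:**
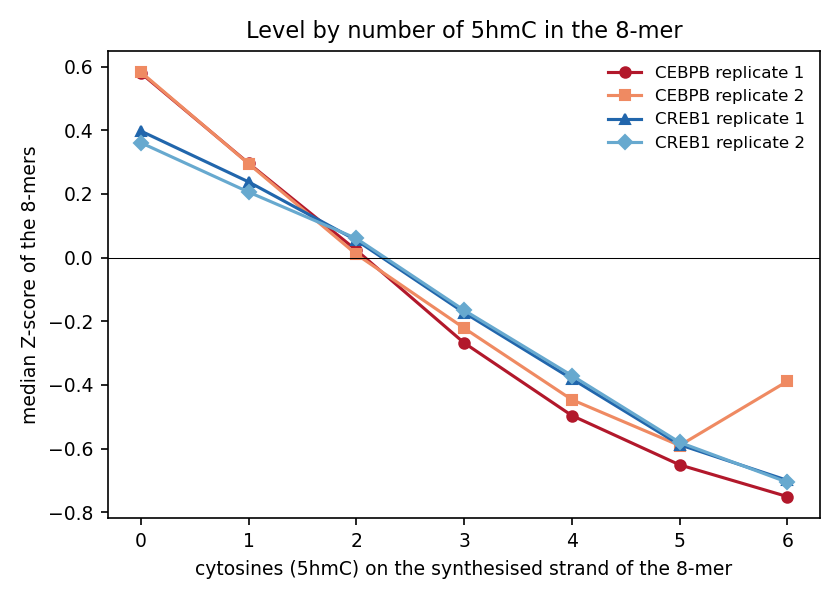
Median Z-score of the 8-mers (vertical axis) by the number of cytosines, all 5hmC, on the synthesised strand of the 8-mer (horizontal axis), for each of the 4 arrays. All 4 lines fall from between 0.361 and 0.583 without 5hmC to between -0.651 and -0.580 with 5 of them; the class with 6 holds 90 8-mers.

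Over all 8-mers, Z-scores of both proteins were lower with more 5hmC. The median Z-score of the 6560 8-mers without cytosine was 0.580 and 0.583 on the CEBPB arrays and 0.398 and 0.361 on the CREB1 arrays. It was -0.651 and -0.590 with CEBPB and -0.588 and -0.580 with CREB1 in the 1079 8-mers with 5 cytosines. The number of cytosines also sets base composition, which was not separated from it. Of the 8-mers without cytosine, 101 were called higher in CEBPB (1.54%) and 141 in CREB1 (2.15%), beside 0.885% and 2.45% of all 8-mers. They were 50 and 103 without CEBPB replicate 1, and with 1 array left out 15 to 50 and 80 to 103. Of the 24642 with a CG, 89 were called higher in CEBPB (0.361%) and 840 in CREB1 (3.41%). Of the 39869 without, the counts were 482 (1.21%) and 739 (1.85%). Without CEBPB replicate 1 they were 60 and 458 with a CG, and 269 and 435 without. With 1 array left out they were 13 to 60 and 233 to 458 with a CG, and 65 to 269 and 261 to 435 without. Among 255 8-mers of A and T only, 8 were called higher in CEBPB (0 to 5 with 1 array left out) and 1 in CREB1, with a median difference of 0.662.

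Sites of other factor families were measured for comparison. The E-box CACGTG is the site of MYC and other bHLH proteins. It was called higher in CREB1 in 17 of 48 8-mers and in CEBPB in 0, beside 2.45% and 0.885% of all 8-mers tested. Without CEBPB replicate 1 the count was 12, and with 1 array left out 3 to 12. Medians of that list were 0.688 and -0.0562 with CEBPB and 2.26 and 2.53 with CREB1. Leaving out E-box 8-mers that also hold TGAC or GTCA, which was decided after the values were seen, left 16 of 46, and 2 to 11 with 1 array left out. The AP-1 site, TGACTCA or TGAGTCA, was called in 0 of 16 8-mers, with a median difference of -1.08. With the 4 arrays alone, 7 of those 16 were called higher in CREB1.

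Some of the same sites are given here on the other DNA forms, first for CREB1. The composite site TGATGCAA was at 1.69 and 4.10 on unmodified cytosine, where it ranked 2228, at 42.4 on the single 5mC array, and at 141 and 171 on 5hmC. TGACGCAA was at 16.8 and 20.4 on cytosine, 58.2 on 5mC and 70.1 and 82.8 on 5hmC. TTGCACAA was at 0.0986 and 0.211, 0.435, and 2.02 and 2.32. Other sites were lower on 5hmC than on cytosine. TTGCGTCA, the reverse complement of TGACGCAA, went from 12.4 and 23.4 on cytosine to 1.24 and 0.982 on 5hmC. TGACGTCA went from 213 and 177 to 19.1 and 38.5, and TTACGTCA from 48.2 and 59.7 to 2.98 and 3.49. TGATGTAA, which has no cytosine on this strand, was at 3.79 and 5.75 on cytosine and at 28.3 and 23.8 on 5hmC. CEBPB(V285A) on 5hmC, which differs from CEBPB by 1 residue in the basic region, had TGATGCAA at 110 and 84.0 and TTGCACAA at 8.15 and 16.5. These values are side by side only, since the Z-scores of different arrays share no scale. CEBPB on cytosine or 5mC was not analysed here.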

How the data were processed

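Binding was measured on 21 protein binding microarrays, of which 4 were compared here (CEBPB and CREB1 on 5hmC, 2 arrays each). The Z-score of each 8-mer is the authors' value as deposited. How these scores were made from probe signals is not given in the sources used here. The median intensity of each spot and of its local background was deposited, per the file headers. Median signal was 580 and 538 with CEBPB and 1407 and 1544.5 with CREB1, and median background was 264 to 401.5. The number of probes (median 17 per 8-mer) and of arrays limits the precision.

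Names of 8-mers in the deposited score table matched the printed bases when read from the other end: across 8-mers, the correlation with median probe intensity was then 0.831 to 0.891, and at most 0.363 otherwise. The complement of the name, used here, is the synthesised strand if the printed strand is the template, which was assumed and not tested. If that were wrong, every sequence given would be its reverse complement.

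Groups came from the sample titles. The 1024 8-mers with under 8 probes were left out. limma 3.58.1 in R 4.3.3 was fitted on Z-scores with 1 coefficient per group over all 21 arrays, with a mean-variance trend and 11 residual degrees of freedom, two-sided, with Benjamini-Hochberg adjustment, and 8-mers or pairs under 0.05 were called. The scripts were tested on simulated data. With 2 arrays against 2, an exact permutation test of 1 value cannot go below 0.333.

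Named 8-mers were 18 sites joined from 2 cores and their reverse complements, up to 10 called with the largest difference each way, the top 10 by mean of each protein, and up to 5 called pairs with the largest difference of asymmetry each way. Near repeats (a common run of 7 bases on either strand, or the opposite strand of a sequence on the same side) were passed over. The sites, lists and comparison were chosen with earlier results of these data known. Alternatives were the 4 arrays alone, 5 other scales, other probe minimums, no trend, a replicate block and leaving out each array.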

Additional observations from a re-analysis of the deposited data

Results flagged for a closer look

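The strand asymmetry of 11 named pairs differed between CEBPB and CREB1 by the test of the difference itself (limma, adjusted over all pairs). The pairs of TGACGCAA, TTGCGTAA and TGATGCAA are not among them, since they were called without the mean-variance trend but not with it. Each value is the asymmetry in CEBPB minus that in CREB1, in Z units. On the CREB1 side the differences were -71.22 for ACGCAATA and TATTGCGT, -61.09 for GATGACGC and GCGTCATC, -46.09 for ATGCAATA and TATTGCAT, -38.50 for GTGACGCA and TGCGTCAC, -37.81 for GTGATGCA and TGCATCAC, and -25.96 for TGATGTAA and TTACATCA. On the CEBPB side they were 22.67 for TTGCGAAA and TTTCGCAA, 12.83 for TTGTGAAA and TTTCACAA, 11.67 for CGATTGCA and TGCAATCG, and 11.02 for GAAATTCT and AGAATTTC. The pair TTGTGCAA and TTGCACAA had -21.58, with TTGCACAA the higher member in CEBPB. TATTGCGT and TATTGCAT, reverse complements of leading CREB1 8-mers, were at 6.63 and 6.14, and at 7.25 and 12.0, on the CEBPB arrays. Of the 11, 6 were called in every alternative that gave a value. On the asinh scale GATGACGC, GTGATGCA, TTGTGAAA and GAAATTCT were lost (limma adjusted p 0.0579, 0.372, 0.394 and 0.444). After quantile normalization of the 4 arrays TTGTGCAA, GATGACGC and GAAATTCT were lost (0.839, 0.0705 and 0.0729), and GAAATTCT also with normexp (0.125). No cause was tested for any of these differences.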

How the results depend on the processing

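Counts of calls depended strongly on the fit. With the 4 arrays alone, 11288 8-mers were called (4769 higher in CEBPB and 6519 in CREB1), with 3869 pairs, and asymmetry within a protein was called in 10443 pairs for CEBPB and 10557 for CREB1. Without the trend as well (added after seeing the data), these were 9679 (3873 and 5806), 3510, 10016 and 10182. With quantile normalization of the 4 arrays alone (also added), they were 9995 (4684 and 5311), 3096, 10353 and 9178. With log2 probe intensity they were 8838 (3765 and 5073), 2605, 7665 and 11526, and with normexp 15759 (7955 and 7804), 5143, 11007 and 14732. After division by array SD, 1154 were higher in CEBPB and 921 in CREB1, and asymmetry was called in 6164 and 1051 pairs. Quantile normalization of all arrays gave 1212 higher in CEBPB, and asinh gave 332 pairs. Leaving out 1 array gave 577 to 1222 8-mers, 83 to 329 higher in CEBPB, 494 to 893 in CREB1, 412 to 673 pairs, 82 to 2304 asymmetric pairs in CEBPB and 917 to 3662 in CREB1. Of 24 core lists, 21 kept the sign of their median in all 17 alternatives; the exceptions were GTAA after A, GTAA after T and TTAC before A.

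Of 21 named pairs, 11 were called, 6 of these in every alternative that gave a value, and none of the 21 changed sign. Of 45 named 8-mers, 22 were called, 10 of these in every alternative, and none of the 22 changed sign. Of those not called, 7 changed sign. Under division by SD, TTGCGTCA was at 0.198, TTGTGCAA at 0.214 and TGACATCA at 0.913. Under quantile normalization of all arrays and of the 4 alone, TTACGCAA was at 34.2 and 19.0, TTATGCAA at 7.66 and 4.11, and TGACATCA at 2.55 and 1.94. With log2 intensity and normexp, TTATGTAA was at -0.0261 and -0.0754, and TGACATAA at -0.158 and -0.129. Leaving out 1 array moved TTGCGTCA from -1.08 to 0.510 and TGACATAA from -0.535 to 0.983. These causes were not tested.

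The sample titles did not say whether same-numbered arrays shared more than a number. The replicate differences of the proteins correlated over 8-mers at -0.123 (Pearson) and -0.00158 (Spearman), which cannot decide it. With the replicate block, 4017 8-mers (1558 and 2459), 1527 pairs and 4749 asymmetric pairs in CEBPB were called. The crossed pairing, added after seeing the data, gave 4004 (1540 and 2464), 1515 and 4646.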

Other observations

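Shorter sequences were summarised as the median Z-score of the 48 8-mers that hold them. ATTGCA was the highest 6-base sequence in CEBPB, with medians of 4.15 and 6.09 on the CEBPB arrays. With CREB1 its medians were 1.01 and 0.888, and it ranked 447. TATTGC ranked 3 in CEBPB and 538 in CREB1. TGAAAT, which holds none of the bZIP cores, ranked 8 in CEBPB and 756 in CREB1. On the CREB1 side, GTGACG ranked 2 there and 122 in CEBPB. TGTAAT was high in both proteins, ranked 2 in CEBPB and 17 in CREB1.

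Some single probes differed widely between the CEBPB arrays. HK14808, which holds the consensus CRE, gave 20402 on CEBPB replicate 1 and 2673 on CEBPB replicate 2, and it was at the ceiling on both CREB1 arrays. HK09524 and HK08478, both with TGACGCAA, gave 15947 and 13884.5 on replicate 1, and 2293 and 1341 on replicate 2.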
